A study of Arabidopsis thaliana with 9 samples.

Results

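Whole roots of Arabidopsis thaliana that overexpress SCL3 (SCL3 OE, 3 arrays) were set against whole roots of the scl3 loss-of-function mutant (3 arrays), the widest contrast in SCL3 dose of the series. It takes 6 of the 9 ATH1 arrays, assigned by their titles, and the 3 arrays of wild-type Col-0 serve as the level between them. SCL3 OE carries the overexpression of SCL3 in the Col-0 ecotype, with no promoter or line number in the labels. The mutant carries the allele scl3-1, also in Col-0. All plants grew on MS medium in cycles of 16 h light and 8 h dark at 22°C, roots were taken 7 days after germination, and 300.0 ng of total RNA per sample was labelled. The series text calls the replicates biological triplicates, and the number of plants behind each sample is not given in the sources used here. The values are signals, the linear brightness of a probe set (the group of probes that reports 1 transcript), and can be compared between arrays for 1 probe set but not between probe sets.

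SCL3 belongs to the GRAS family of transcriptional regulators, as do the DELLA proteins, which hold back growth until gibberellin, bound by a GID1 receptor, has them degraded through an F-box protein such as SLY1. SCL3 is known to act against DELLA proteins and so to promote gibberellin responses. In the root it is known from the endodermis, where it works with SHORT-ROOT and SCARECROW in the divisions of the ground tissue, the layers of endodermis and cortex.

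The annotation used here names no probe set for SCL3, so the check of SCL3 by name could not be made. The probe set with the widest change in the contrast is unnamed, and the annotation does not settle whether it reports SCL3 itself, the gene the genotypes alter, or another gene. It had signals of 3636, 3833 and 3542 in SCL3 OE, against 14.99, 23.0 and 23.1 in scl3, and 748, 769.6 and 561 in Col-0. SCL3 OE lay above Col-0 and Col-0 above scl3, with no overlap in any of the 9 arrays. Its log2 fold change, SCL3 OE minus scl3, was 7.45 ± 0.22 with all scl3 arrays (SE, 175-fold, adjusted p = 9.67e-06 in limma) and 7.55 ± 0.15 with scl3 replicates 1 and 2. With an offset of 32 in place of 1, which draws in dim values, it was 6.15 and 6.19. The exact 2-sided permutation p over the 3 SCL3 OE and 3 scl3 arrays was 0.1, the smallest that 3 against 3 can give, for this and every other probe set without overlap.

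The arrays of scl3 were not alike. Over plant probe sets, the SCL3 OE arrays correlated at 0.962 to 0.969 with one another, at 0.932 to 0.941 with scl3 replicates 1 and 2 and at 0.831 to 0.833 with scl3 replicate 3, which itself correlated at 0.824 with scl3 replicates 1 and 2 and at 0.943 with Col-0 replicate 3. The leaf photosynthesis list, 5 tested genes of 37 listed, had summed signals of 1714 to 2126 in SCL3 OE, against 638 and 919 in scl3 replicates 1 and 2 and 68463 in scl3 replicate 3. Such transcripts define green tissue and were not at 0 in any array, and scl3 replicate 3 goes against its whole-root label in them. The root-abundant list, 4 tested genes of 14 listed, summed to 45081 to 47240 in SCL3 OE, 63955 and 64471 in scl3 replicates 1 and 2 and 30892 in replicate 3. Levels of these lists set the arrays apart, and their part in the results was not tested. The 3′ to 5′ signal ratio of actin, a measure of RNA integrity, was 1.85, 2.43 and 2.13 in SCL3 OE, against 2.70, 3.11 and 2.32 in scl3. RNAs spiked into every sample differed too. The 18 hybridization controls of the SCL3 OE arrays lay at 9.76 to 9.85, against 12.004, 12.11 and 9.46 in scl3 (mean log2 signal), and the 24 poly-A controls at 7.25 to 7.81, against 5.51, 5.10 and 6.64 in scl3. No scl3 array matched SCL3 OE in both, so for every change below the genotype and the handling of these arrays cannot be told apart.

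Both versions of the contrast were fitted. With all 3 scl3 arrays, 260 of 13647 tested probe sets passed at an adjusted p under 0.05 in limma (1.91%), 129 higher (0.945%) and 131 lower (0.96%) in SCL3 OE. Of these, 84 were at least 2-fold higher (0.616%) and 108 at least 2-fold lower (0.791%). At an unadjusted p under 0.05 there were 2030 (14.9%). The 260 rested on single arrays and ran from 8, without scl3 replicate 1 or without SCL3 OE replicate 3, to 658 without Col-0 replicate 3. Array set here means the SCL3 OE arrays, replicate 3 of scl3 and Col-0, and the remaining arrays, grouped by how they stand apart. With it as a random block (estimated correlation of 0.91), only the unnamed probe set above passed (adjusted p = 0.0285, limma), so that each call with all scl3 arrays given below for a named gene or a list was lost there. SCL3 OE fills a set by itself, and the sets were drawn from these values. Lost calls therefore mostly reflect that layout and do not single out genes. Of the 260, 130 had no gene name. With scl3 replicates 1 and 2 only, 5521 passed (40.5%), 2848 higher (20.9%) and 2673 lower (19.6%). Of these, 450 were at least 2-fold higher (3.3%) and 574 at least 2-fold lower (4.21%). This fit, named here and below by scl3 replicates 1 and 2, also left out Col-0 replicate 3, which shares in the estimate of the spread. With scl3 replicate 3 alone left out, 224 passed, so 260 and 5521 do not differ by the scl3 arrays alone. All 260 were among the 5521 with the same sign. The median log2 fold change of all tested probe sets was 0.12 with all scl3 arrays and 0.01 with replicates 1 and 2, and changes are read against it, as are counts of passing genes against these shares. In every SCL3 OE array above every scl3 array lay 2918 probe sets (21.4%), and below every scl3 array 1347 (9.87%).

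The place of scl3 replicate 3 depended on the size of the change. Over all 2673 probe sets lower in SCL3 OE than in scl3 replicates 1 and 2, scl3 replicate 3 lay above all SCL3 OE arrays for 1007, within their range for 309 and below them for 1357. Over all 2848 higher, it lay below all SCL3 OE arrays for 1899, within for 171 and above them for 778. Among the 574 probe sets at least 2-fold lower in SCL3 OE than in scl3 replicates 1 and 2, scl3 replicate 3 also lay above all SCL3 OE arrays for 389, within their range for 55 and below them for 130. Among the 450 at least 2-fold higher, replicate 3 lay below all SCL3 OE arrays for 243, within for 15 and above them for 192. The mean over all 3 scl3 arrays turned the sign for 407 of the 2673 and 319 of the 2848, and for 16 of the 574 and 82 of the 450. In the plot of both differences, the leaf photosynthesis genes lie to the right of 0 on one axis and far below 0 on the other.

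**Figure D1:**
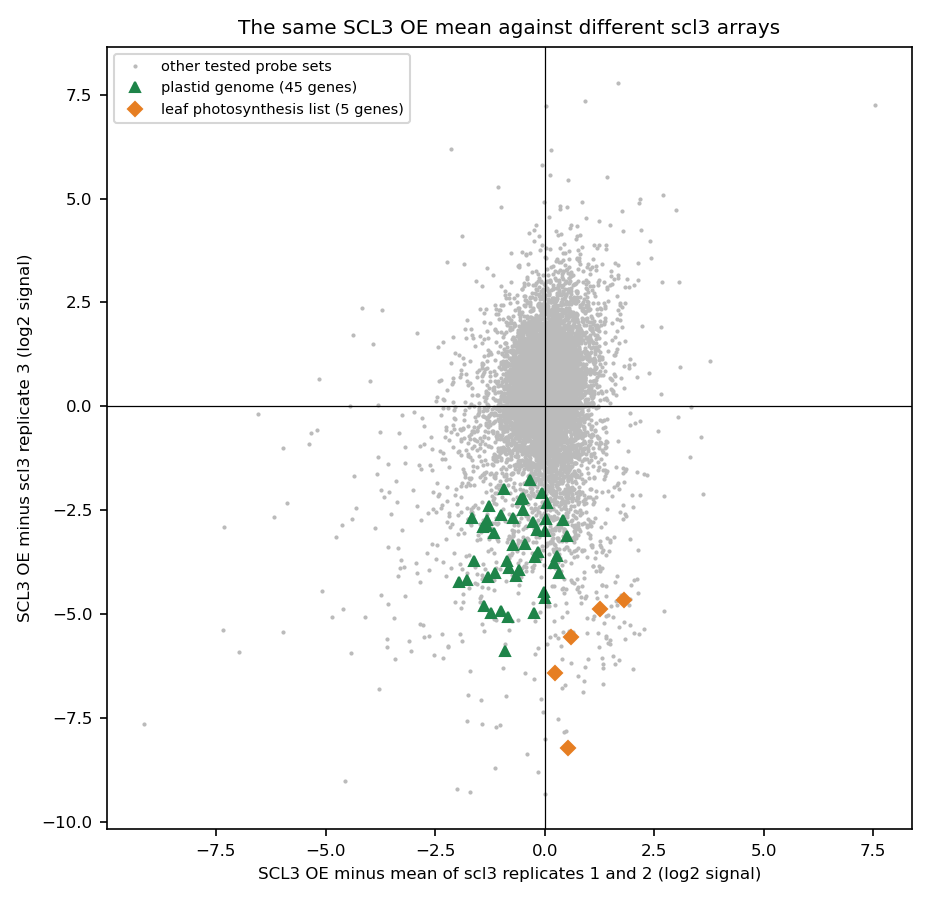
Log2 difference of each tested probe set between the SCL3 OE mean and scl3 replicate 3 (vertical) against that between the SCL3 OE mean and the mean of scl3 replicates 1 and 2 (horizontal); grey points are probe sets, green triangles 45 genes of the plastid genome and orange diamonds 5 leaf photosynthesis genes. Both marked groups lie below 0 on the vertical axis, and the 5 leaf genes lie above 0 on the horizontal axis.

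The 12 named genes with the largest fall in SCL3 OE, of which no theme was tested, included the chitinases ChiC and AT2G43620, the peroxidase AT5G39580, the EF-hand genes AT3G47480 and AT5G39670, the transporter OCT1 and the phosphate starvation gene AT5G20790. Among the 12 named genes with the largest fall, every SCL3 OE array lay below every scl3 array, as the rule for naming asked, and log2 fold changes ran from -8.64 to -2.86 with all scl3 arrays and from -9.15 to -2.84 with replicates 1 and 2. Their limma adjusted p ran from 0.000109 to 0.034 and from 1.85e-08 to 6.15e-05. In whole-root RNA, fewer cells of a type and less RNA per cell cannot be told apart, here and below.

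**Figure D2:**
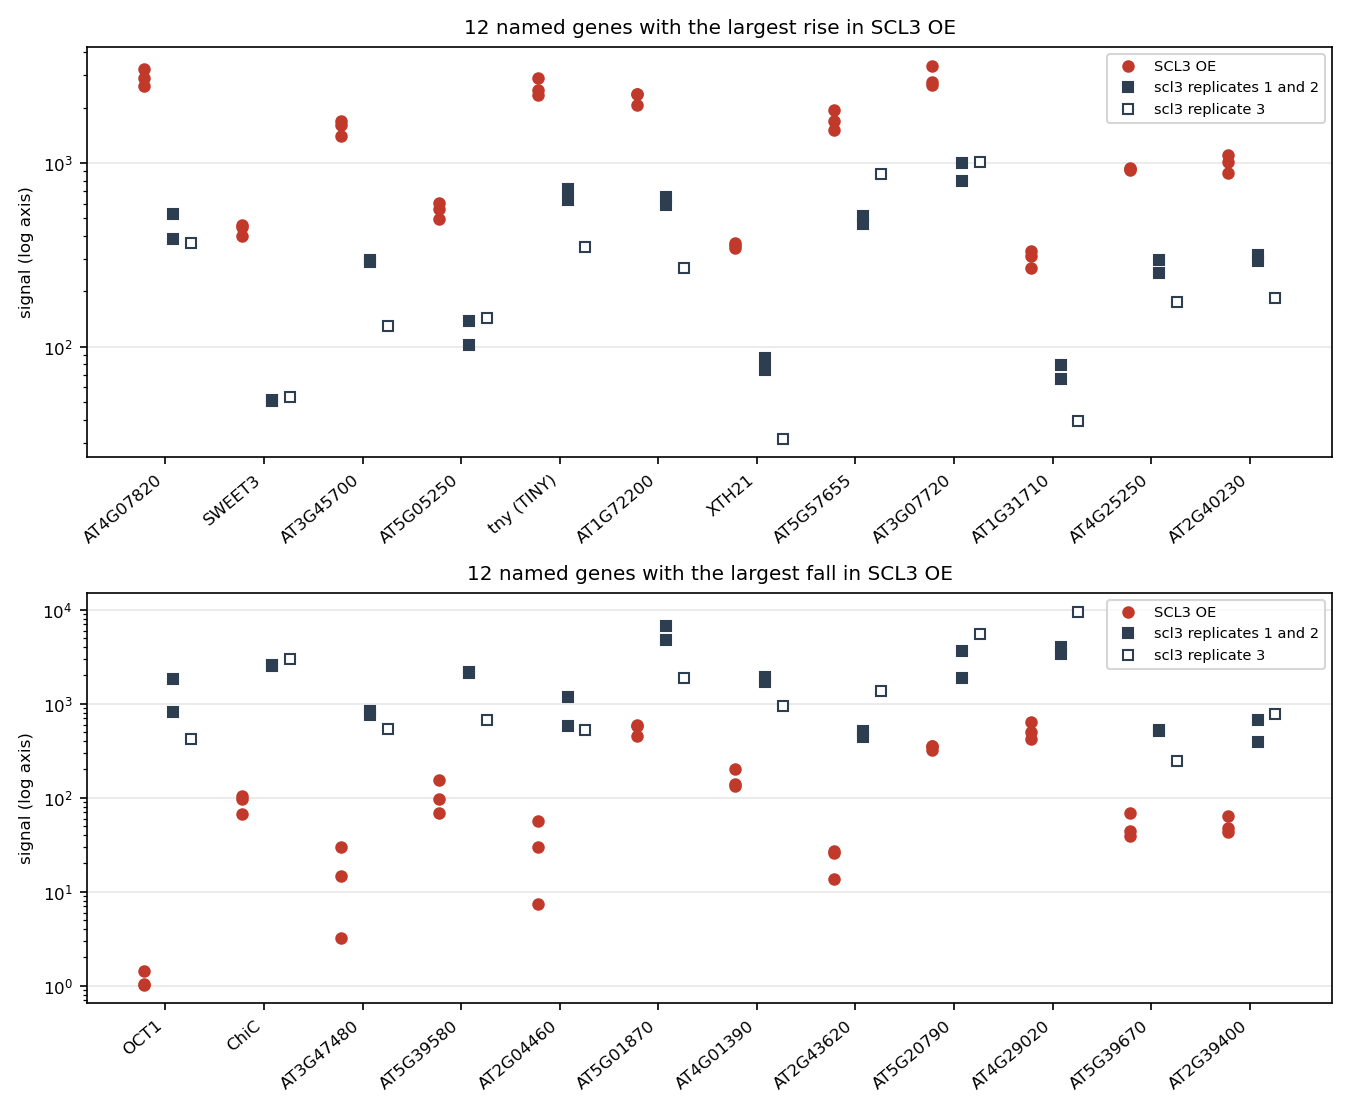
Signal on a log axis of the 12 named genes with the largest rise (upper panel) and the 12 with the largest fall (lower panel) in SCL3 OE, 1 point per array, with red circles for SCL3 OE, filled squares for scl3 replicates 1 and 2 and open squares for scl3 replicate 3. The SCL3 OE points of each gene lie on one side of all 3 scl3 points, and scl3 replicate 3 sits apart from the other scl3 arrays in several genes.

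Chitinases cut chitin, the polymer of fungal walls, and are widely induced in plant defence. ChiC (AT4G19810), a class V chitinase, had signals of 67.3, 98.0 and 105 in SCL3 OE, against 2610.3, 2523 and 3003 in scl3. The mutant arrays lay within a narrow band, replicate 3 included, and all SCL3 OE arrays lay far below it. The log2 fold change was -4.92 ± 0.21 with all scl3 arrays (SE, 30.3-fold lower, adjusted p = 0.000109, limma) and -4.84 ± 0.19 with replicates 1 and 2 (adjusted p = 1.85e-08, limma). AT2G43620, a chitinase family member, had 27.1, 25.7 and 13.7 in SCL3 OE, against 511, 440.5 and 1357 in scl3, a log2 fold change of -4.92 ± 0.49 with all arrays and -4.42 ± 0.26 with replicates 1 and 2. Here scl3 replicate 3 was the highest array, and the SCL3 OE signals were near the floor, so that the offset of 32 gave -3.72 and -3.23.

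Another member, AT2G43590, had 1536, 1916 and 1740.4 in SCL3 OE, against 5993, 6187 and 5347 in scl3, and fell by 1.76 (SE 0.23) on the log2 scale with all arrays. Of the 6 tested chitinases, a list chosen with earlier results of these data known, all 6 fell with scl3 replicates 1 and 2 (median -2.07), where 19.6% of all tested probe sets fell. With all scl3 arrays 3 fell (median -1.39), where 0.96% of all tested probe sets did, and the other 3 did not pass. The 3 falls that passed lost their call with array set as a random block (adjusted p = 0.647, 0.9999 and 0.9999 for ChiC, AT2G43620 and AT2G43590, limma). The other members differed in how they met scl3 replicate 3. CHI (AT2G43570) had 294, 396 and 375 in SCL3 OE, against 1380.2 and 2249 in scl3 replicates 1 and 2 and 120.0 in replicate 3, below every SCL3 OE array. With all arrays its log2 fold change was -1.03 ± 1.43 (SE) and did not pass, against -2.32 ± 0.20 with replicates 1 and 2. AT1G02360 had 2687, 2859 and 2945 in SCL3 OE, against 3551, 4148 and 477 in scl3, and its log2 fold change of -0.44 with replicates 1 and 2 became 0.56 with all arrays. AT3G47540 kept its sign, at -0.88 and -0.83, and passed with replicates 1 and 2 only.

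Class III peroxidases are secreted enzymes that make or use reactive oxygen in the wall. AT5G39580, one of them, had 97.8, 152 and 69.3 in SCL3 OE, against 2174, 2137 and 665 in scl3, with log2 fold changes of -3.83 ± 0.51 (all arrays) and -4.40 ± 0.24 (replicates 1 and 2, SE). The groups did not overlap, and scl3 replicate 3 was the mutant array nearest to SCL3 OE. The widest peroxidase change was in PRX52 (AT5G05340), at 4.16, 5.89 and 9.62 in SCL3 OE, against 1405 and 933 in scl3 replicates 1 and 2 and 52.5 in replicate 3. It fell by 7.31 on the log2 scale with replicates 1 and 2 (SE 0.29, adjusted p = 2.22e-08, limma; -4.93 with the offset of 32). With all arrays the log2 fold change was -5.84 ± 1.45 (adjusted p = 0.0967, limma) and did not pass, although the groups did not overlap. The peroxidase list did not move one way. It takes genes by symbol or synonym and leaves AT5G39580 out, so its counts are not those of the whole family. Of its 5 tested members, 3 fell and 2 rose with replicates 1 and 2 (median -1.32), where 19.6% and 20.9% of all tested probe sets did. With all arrays 0 passed in limma (1 higher and 2 lower at an unadjusted p under 0.05). Prx37 (AT4G08770) had 700.3, 871 and 698 in SCL3 OE, against 2206, 1603 and 1974 in scl3, and fell with replicates 1 and 2 (-1.32 ± 0.14, SE). AT5G64120 had 7709, 7873 and 7406 in SCL3 OE, against 2798, 3245 and 6775 in scl3, and rose with replicates 1 and 2 (1.35 ± 0.11), with scl3 replicate 3 the mutant array nearest to SCL3 OE.

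Calcium sensors and early elicitor genes respond within minutes to touch, wounding and microbial molecules. The zinc finger repressor STZ (AT1G27730) had 249, 181 and 176 in SCL3 OE, against 1139.9, 1223 and 839.8 in scl3, without overlap. It fell by 2.40 on the log2 scale with all arrays (SE 0.20, adjusted p = 0.00591, limma) and by 2.56 with replicates 1 and 2 (adjusted p = 2.56e-07, limma). The calmodulin-like CML38 (AT1G76650) had 36.3, 17.4 and 42.1 in SCL3 OE, against 187, 232 and 1453 in scl3. Its highest mutant array was replicate 3, and the log2 fold change was -3.69 ± 0.94 with all arrays, which did not pass, and -2.76 ± 0.35 with replicates 1 and 2 (SE). AT3G47480 and AT5G39670, both with EF hands, the fold that binds calcium, were among the 12 deepest falls. AT3G47480 had 30.2, 3.20 and 14.5 in SCL3 OE, against 845, 754 and 541 in scl3, with log2 fold changes of -5.79 ± 0.85 (all arrays) and -5.98 ± 0.59 (replicates 1 and 2), and -3.97 and -4.15 with the offset of 32. AT5G39670 had 38.7, 68.0 and 44.7 in SCL3 OE, against 507, 530.0 and 243 in scl3, and -3.01 ± 0.52 and -3.38 ± 0.22. Both were brighter in every mutant array than in any SCL3 OE array, and replicate 3 was the dimmest mutant array.

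As a group, the early elicitor, wound and touch list had 5 tested genes of 45 listed. With replicates 1 and 2, 4 fell and the other 1 did not pass (median -1.27), where 19.6% of all tested probe sets fell. With all arrays 1 fell, STZ (median -0.92), where 0.96% of all tested probe sets did. The calmodulin-like and EF-hand list had 6 tested genes that include CML38 but neither AT3G47480 nor AT5G39670. Of these, 3 fell and 2 rose with replicates 1 and 2 (median -0.58), where 19.6% and 20.9% of all tested probe sets did. With all arrays 0 passed in limma (1 higher and 3 lower at an unadjusted p under 0.05). CML23 had 155, 98.3 and 128 in SCL3 OE, against 393, 343 and 224 in scl3. CML41 had 62.2, 64.9 and 68.4 in SCL3 OE, against 152, 139 and 149 in scl3. Both fell with replicates 1 and 2 (-1.55 ± 0.19 and -1.14 ± 0.19, SE) without overlap. CML43 rose (0.81 ± 0.12), with 566, 672 and 636 in SCL3 OE, against 346, 367 and 211 in scl3, as did CML30 (0.90 ± 0.27). WRKY transcription factors are regulators of defence and senescence. Of 6 tested, 2 fell with replicates 1 and 2, where 19.6% of all tested probe sets did. With all arrays 0 passed in limma (0 also at an unadjusted p under 0.05). The 2 that fell, WRKY53 and WRKY6, are also counted in the early elicitor, wound and touch list. WRKY53 had 38.9, 108 and 66.0 in SCL3 OE, against 145, 173 and 77.1 in scl3. WRKY6 had 498, 779 and 737 in SCL3 OE, against 864, 1025 and 293 in scl3. In the first, scl3 replicate 3 lay within the SCL3 OE range, and in the second below it.

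Of the nutrient genes, OCT1 (AT1G73220), an organic cation transporter of the plasma membrane, had the largest fall of any named gene. Its signals were 1.42, 1.03 and 1.02 in SCL3 OE, at the floor of the scale, against 1834, 813 and 426 in scl3. The mutant arrays spread widely, with replicate 1 highest and replicate 3 lowest, and none came near SCL3 OE. The log2 fold change of -8.64 ± 0.79 with all arrays (SE, adjusted p = 0.0071, limma) depends on the floor and was -4.76 with the offset of 32 (-5.24 with scl3 replicates 1 and 2).

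AT5G20790 and AT2G04460 make up the tested part of the phosphate starvation list (2 of 17 listed), and both fell in both fits. Of all tested probe sets, 0.96% fell with all arrays and 19.6% with replicates 1 and 2. AT5G20790, induced when phosphate is scarce, had 355, 321 and 353 in SCL3 OE, against 3605, 1883 and 5544 in scl3. AT2G04460, a pseudogene in RefSeq, had 56.1, 29.6 and 7.32 in SCL3 OE, against 1171, 584 and 528 in scl3. The SCL3 OE arrays were close to one another for the first and spread over the dim end of the scale for the second. With all arrays the log2 fold changes were -3.29 ± 0.45 and -4.87 ± 0.77 (SE), where the median of all tested probe sets was 0.12. With array set as a random block both calls were lost (adjusted p = 0.9999 and 0.9999, limma).

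The remaining members of the 12 came from several families. AT5G01870, of the lipid transfer protein family, had 591, 585 and 452 in SCL3 OE, against 6712, 4775 and 1868 in scl3. AT4G29020 had 642, 503 and 420.1 in SCL3 OE, against 4011, 3405 and 9537 in scl3. In the first, scl3 replicate 3 was the lowest mutant array, and in the second the highest. AT2G39400, of the alpha/beta hydrolase family, had 47.8, 64.1 and 43.7 in SCL3 OE, against 396, 669 and 768 in scl3. AT4G01390 had 204, 141 and 133 in SCL3 OE, against 1906, 1697 and 952 in scl3. Log2 fold changes of these genes with all arrays were -2.86, -3.30, -3.50 and -3.21.

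Further falls were seen in genes chosen after their values were known. OSM34 (AT4G11650), an osmotin-like defence protein, had 1241, 1321 and 1803 in SCL3 OE, against 11104, 10580.3 and 7561 in scl3, a log2 fold change of -2.92 ± 0.13 with replicates 1 and 2 (adjusted p = 5.85e-08, limma). With all arrays it was -2.74 ± 0.54 and missed the threshold (adjusted p = 0.0508, limma), without overlap. BCAT4 (AT3G19710), which starts the chain elongation of methionine for glucosinolates, had 943, 1038 and 637 in SCL3 OE, against 6072, 4239 and 2476 in scl3 (-2.22 ± 0.43 with all arrays, adjusted p = 0.0477, limma). BZIP60 (AT1G42990), a transcription factor of the unfolded protein response, had 823, 934 and 933 in SCL3 OE, against 1896, 2382 and 1205 in scl3. Its fall passed with replicates 1 and 2 (-1.25 ± 0.11) and not with all arrays (-0.97 ± 0.26). FHL (AT5G02200), which helps bring phytochrome A into the nucleus, had 54.7, 56.6 and 53.6 in SCL3 OE, against 238, 181 and 323 in scl3 (-2.11 ± 0.24 with all arrays, SE) and was called in both fits.

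The named genes with the largest rise included transporters, iron deficiency genes and wall enzymes, and no theme was tested. For these 12 named genes with the largest rise, log2 fold changes ran from 1.53 to 3.05 with all scl3 arrays and from 1.71 to 3.08 with replicates 1 and 2, with limma adjusted p from 0.0123 to 0.0423 and from 4.27e-08 to 2.25e-05. All 12 were free of overlap with the 3 scl3 arrays by the rule for naming.

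SWEET3 (AT5G53190), of the SWEET family of sugar transporters, had 458, 450.4 and 401 in SCL3 OE, against 50.4, 51.1 and 53.4 in scl3. The 3 mutant arrays lay close together, replicate 3 included. Its log2 fold change was 3.05 ± 0.47 with all arrays (SE, 8.30-fold, adjusted p = 0.0228, limma), 3.08 ± 0.16 with replicates 1 and 2, and 2.48 with the offset of 32. AT3G45700, a member of the NPF family of nitrate and peptide transporters, had 1684, 1616 and 1405 in SCL3 OE, against 297, 287 and 130.0 in scl3 (2.80 ± 0.43 with all arrays). AT4G07820, of the CAP family that includes PR-1, had 2887, 2634 and 3242 in SCL3 OE, against 387, 526 and 365 in scl3 (2.79 ± 0.49). In AT3G45700 replicate 3 was the lowest mutant array, and the rise was 2.42 ± 0.11 without it.

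Plants short of iron induce uptake and signalling genes in the root. The iron deficiency list had 5 tested genes of 26 listed, and 3 rose in both fits. Of all tested probe sets, 0.945% rose with all arrays and 20.9% with replicates 1 and 2. AT5G05250 had 494, 608 and 564 in SCL3 OE, against 102, 138 and 144 in scl3. AT3G07720 had 2773, 2651 and 3385 in SCL3 OE, against 793, 1005 and 1017 in scl3. AT1G47400 had 189, 258 and 228 in SCL3 OE, against 44.8, 73.6 and 100.02 in scl3. All mutant arrays lay below all SCL3 OE arrays for the 3 genes, and replicate 3 was the highest mutant array for each. With all arrays the log2 fold changes were 2.12 ± 0.35, 1.65 ± 0.20 and 1.68 ± 0.31 (SE, adjusted p = 0.027, 0.0123 and 0.041, limma).

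These 3 calls with all arrays were lost with array set as a random block (adjusted p = 0.9999 each, limma). The list did not rise as a whole. PYE (AT3G47640), a transcription factor that represses iron genes, had 218, 228 and 206 in SCL3 OE, against 202, 222 and 178 in scl3, and its log2 fold change was 0.036 ± 0.14 with replicates 1 and 2. AT3G13610, which makes coumarins that mobilise iron, had 2283, 2531 and 2377 in SCL3 OE, against 4130.3, 4754 and 1657 in scl3. It fell with replicates 1 and 2 (-0.89 ± 0.087) and did not pass with all arrays (-0.41 ± 0.43, SE). BHLH101, below the filter on mean signal and so not tested, had 214, 187 and 197 in SCL3 OE, against 74.1, 96.2 and 1.27 in scl3. The median of the 5 tested genes was 1.65 with all arrays, against 0.12 over all tested probe sets.

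Other rises were in regulators and enzymes. tny (AT5G25810), the AP2-type transcription factor TINY, had 2894, 2500.1 and 2349 in SCL3 OE, against 629, 723 and 349.8 in scl3 (2.24 ± 0.41 with all arrays, SE). AT1G72200, a RING finger protein, had 2381, 2076 and 2379 in SCL3 OE, against 591, 649.6 and 269 in scl3 (2.28 ± 0.42). For both, scl3 replicate 3 was the lowest mutant array, and with replicates 1 and 2 the rises were 1.93 and 1.87. AT5G57655, a xylose isomerase, had its highest mutant array in replicate 3, with 1691, 1511 and 1952 in SCL3 OE, against 467, 511 and 865 in scl3. AT1G31710, a copper amine oxidase, had 312, 268 and 330.2 in SCL3 OE, against 79.6, 66.7 and 39.3 in scl3. AT2G40230, of an acyltransferase family, had 886, 1014 and 1106 in SCL3 OE, against 314, 292 and 184 in scl3. A second tested probe set of AT1G31710 did not pass in either fit (0.52 ± 0.62 with all arrays and -0.21 ± 0.10 with replicates 1 and 2, SE), with 1998, 2411 and 2041 in SCL3 OE, against 2301, 2671 and 541 in scl3. In the AT1G31710 probe set first given and in AT2G40230, replicate 3 was again the lowest mutant array, and with all arrays the log2 fold changes of the 3 enzymes were 1.53 ± 0.29, 2.33 ± 0.32 and 1.96 ± 0.29 (SE).

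Further genes were chosen after their values were seen and because they were higher in SCL3 OE, and stand for no group. MCCA (AT1G03090), a subunit of methylcrotonyl-CoA carboxylase in leucine breakdown, had 1197, 1271 and 1328 in SCL3 OE, against 466, 514 and 439.6 in scl3. It passed with replicates 1 and 2 (1.37 ± 0.14) and not with all arrays (1.42 ± 0.29, adjusted p = 0.0584, limma). AT4G33150, the lysine-degrading enzyme, had 1529, 1571 and 1646 in SCL3 OE, against 716, 823 and 915 in scl3. MGL (AT1G64660), which breaks down methionine, had 800.4, 738 and 877 in SCL3 OE, against 366, 427 and 272 in scl3. Both passed in both fits, at 0.96 ± 0.14 and 1.20 ± 0.22 with all arrays (SE). GAT1_2.1 (AT1G15040), a glutamine amidotransferase-like protein, had 1375, 1621 and 1696 in SCL3 OE, against 627, 564 and 753 in scl3. UGT73B1 (AT4G34138), a glucosyltransferase, had 917, 1172 and 1132 in SCL3 OE, against 348, 326 and 412 in scl3. None of these 5 genes overlapped scl3 in any array, and both GAT1_2.1 (1.27 ± 0.19) and UGT73B1 (1.56 ± 0.17) passed in both fits (all arrays, SE).

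The lists of wall-loosening families were split. Xyloglucan endotransglucosylases cut and rejoin the xyloglucan that ties cellulose together. XTH21 (AT2G18800) was among the 12 largest rises, at 346, 367 and 357 in SCL3 OE, against 87.2, 74.9 and 31.5 in scl3 (2.57 ± 0.38 with all arrays, 2.13 ± 0.16 with replicates 1 and 2, SE). XTH26 (AT4G28850) had 98.5, 96.5 and 104 in SCL3 OE, against 522, 491 and 241 in scl3. XTH20 (AT5G48070) had 248, 299.7 and 238 in SCL3 OE, against 974, 899.7 and 329 in scl3. Both fell with replicates 1 and 2 (-2.33 ± 0.13 and -1.84 ± 0.12) and did not pass with all arrays (-1.98 ± 0.58 and -1.34 ± 0.70), though no mutant array overlapped SCL3 OE. With replicates 1 and 2, 3 of 8 tested members rose and 5 fell (median -0.36), against 20.9% and 19.6% of all tested probe sets. With all arrays 1 rose, XTH21, where 0.945% of all tested probe sets did. XTH16 (AT3G23730) had 574, 474 and 516 in SCL3 OE, against 117 and 163 in scl3 replicates 1 and 2 and 1093 in scl3 replicate 3, which lay above SCL3 OE, so that it rose with replicates 1 and 2 (1.90 ± 0.16) and did not pass with all arrays (0.91 ± 0.97).

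Expansins loosen walls at acid pH as cells elongate. Of 11 tested members of the list, 7 fell and 2 rose with replicates 1 and 2, where 19.6% and 20.9% of all tested probe sets did. Their median was -0.44, against 0.01 over all tested probe sets. With all arrays 0 passed in limma (1 higher and 2 lower at an unadjusted p under 0.05). EXPB1 (AT2G20750) rose with replicates 1 and 2 (1.48 ± 0.13, SE), at 1321, 989 and 1153 in SCL3 OE, against 387, 434 and 150.3 in scl3. EXPB3 (AT4G28250) fell (-1.70 ± 0.15), at 706, 659.8 and 473 in SCL3 OE, against 1953, 1962 and 410.2 in scl3. EXPA4 (AT2G39700) fell too (-1.16 ± 0.11), at 1071, 1077 and 1143 in SCL3 OE, against 2482, 2435 and 1098 in scl3. Replicate 3 of scl3 lay below the SCL3 OE range for EXPB3 and within it for EXPA4, while the other scl3 arrays lay above it. For EXPB1 every scl3 array lay below the SCL3 OE range. AT4G25250, a pectin methylesterase inhibitor that bears on pectin stiffness, rose in both fits, with 929, 916 and 937 in SCL3 OE, against 295, 253 and 176 in scl3.

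The root hair expansins EXPA7 (AT1G12560) and EXPA18 (AT1G62980) moved in opposite directions with replicates 1 and 2 (0.60 ± 0.13 and -0.38 ± 0.095, SE). EXPA7 had 1126, 937 and 993 in SCL3 OE, against 696, 641 and 317 in scl3. EXPA18 had 1253, 1291 and 1406 in SCL3 OE, against 1824, 1596 and 581 in scl3. The SCL3 OE arrays of EXPA18 lay between scl3 replicate 3 and the other mutant arrays. Of 4 tested root hair genes, 1 rose and 1 fell with replicates 1 and 2, against 20.9% and 19.6% of all tested probe sets. With all arrays 0 passed in limma (0 also at an unadjusted p under 0.05). The root hair cellulase GH9C1 had -0.012 and AT1G30870 0.092 with replicates 1 and 2, and neither passed.

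Gibberellin genes had small log2 fold changes apart from SLY2. Of 8 tested members of the gibberellin list (22 listed), 4 rose and 1 fell with replicates 1 and 2 (median 0.27, with 20.9% of all tested probe sets rising), and 0 passed with all arrays in limma (median 0.22, 2 higher and 1 lower at an unadjusted p under 0.05). SLY2 (AT5G48170), the F-box relative of SLY1, had 64.9, 76.6 and 56.4 in SCL3 OE, against 242, 255 and 114 in scl3, and fell with replicates 1 and 2 (-1.91 ± 0.18, SE, adjusted p = 1.19e-05, limma). All mutant arrays lay above all SCL3 OE arrays, and with all arrays the log2 fold change was -1.53 ± 0.43 (adjusted p = 0.135, limma). SLY1 itself had 734, 704 and 793 in SCL3 OE, against 631, 712 and 769 in scl3, and overlapped.

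The receptors GID1A (AT3G05120) and GID1C (AT5G27320) rose with replicates 1 and 2 (0.67 ± 0.11 and 0.74 ± 0.19, SE). GID1A had 580.0, 541 and 584 in SCL3 OE, against 357 and 358 in scl3 replicates 1 and 2 and 1471 in replicate 3, and with all arrays its log2 fold change was -0.013 ± 0.75. GID1B, the third receptor, had 536, 551 and 580.1 in SCL3 OE, against 558, 584 and 829.7 in scl3, and did not pass in either fit. XERICO (AT2G04240), a RING protein induced by DELLA proteins, had 2027, 1582 and 1677 in SCL3 OE, against 1219, 1338 and 1137 in scl3. SPY (AT3G11540), an O-fucosyltransferase that restrains gibberellin signalling, had 512, 528 and 546 in SCL3 OE, against 396, 406 and 337 in scl3. Both rose with replicates 1 and 2 (0.46 ± 0.11 and 0.40 ± 0.12) without overlap in any array.

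In the ground tissue list 2 of 7 listed genes were tested, SLY2 and JKD (AT5G03150). JKD, a zinc finger protein that works with SHORT-ROOT and SCARECROW, had 159.9, 184 and 206 in SCL3 OE, against 102, 88.5 and 72.1 in scl3. It rose with replicates 1 and 2 (0.94 ± 0.19, SE, adjusted p = 0.00264, limma), and with all arrays the log2 fold change was 1.07 ± 0.24 (adjusted p = 0.0694, limma). The endodermis list had 1 tested gene of 15 listed, GSO1 (AT4G20140), a receptor kinase of the barrier, with 572, 699 and 578 in SCL3 OE, against 603, 644 and 115 in scl3, and it passed in neither fit. Of the cortex genes, AT1G62500 had 87.0, 69.8 and 79.4 in SCL3 OE, against 163, 116 and 992 in scl3. AT1G09750 had 430.3, 315 and 311 in SCL3 OE, against 125, 208 and 5009 in scl3. With replicates 1 and 2 the first fell (-0.80 ± 0.22) and the second rose (1.11 ± 0.22), and neither passed with all arrays. In both, replicate 3 of scl3 lay far above the other scl3 and the SCL3 OE arrays, as it did for the leaf photosynthesis genes. Col-0 replicate 3 was high too. The cortex list summed to 6801 there and 6001 in scl3 replicate 3, and the leaf list to 65802 and 68463. The part of other tissue in these values was not tested.

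The lists of detoxification families had no common direction. Of 10 tested glutathione transferases, 3 rose and 4 fell with replicates 1 and 2 (median 0.07). Of all tested probe sets, 20.9% rose and 19.6% fell there. With all arrays 1 transferase fell, where 0.96% of all tested probe sets did. This was GSTU20 (AT1G78370), at 321, 329 and 225 in SCL3 OE, against 1809, 1414 and 1683 in scl3 (-2.50 ± 0.31 with all arrays, SE, adjusted p = 0.0127, limma). GSTU28 (AT1G53680) rose with replicates 1 and 2 (0.65 ± 0.11), at 1156, 1084 and 1121 in SCL3 OE, against 681, 752 and 285 in scl3. Of the cytochrome P450 enzymes 8 were tested, most from the CYP71B group. With replicates 1 and 2, 2 rose and 5 fell (median -0.52), where 20.9% and 19.6% of all tested probe sets did. With all arrays 0 passed in limma (1 higher and 2 lower at an unadjusted p under 0.05). The widest was CYP71B6 (AT2G24180), with 1398, 1756 and 1593 in SCL3 OE, against 3936 and 5306 in scl3 replicates 1 and 2 and 893 in replicate 3.

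**Figure D3:**
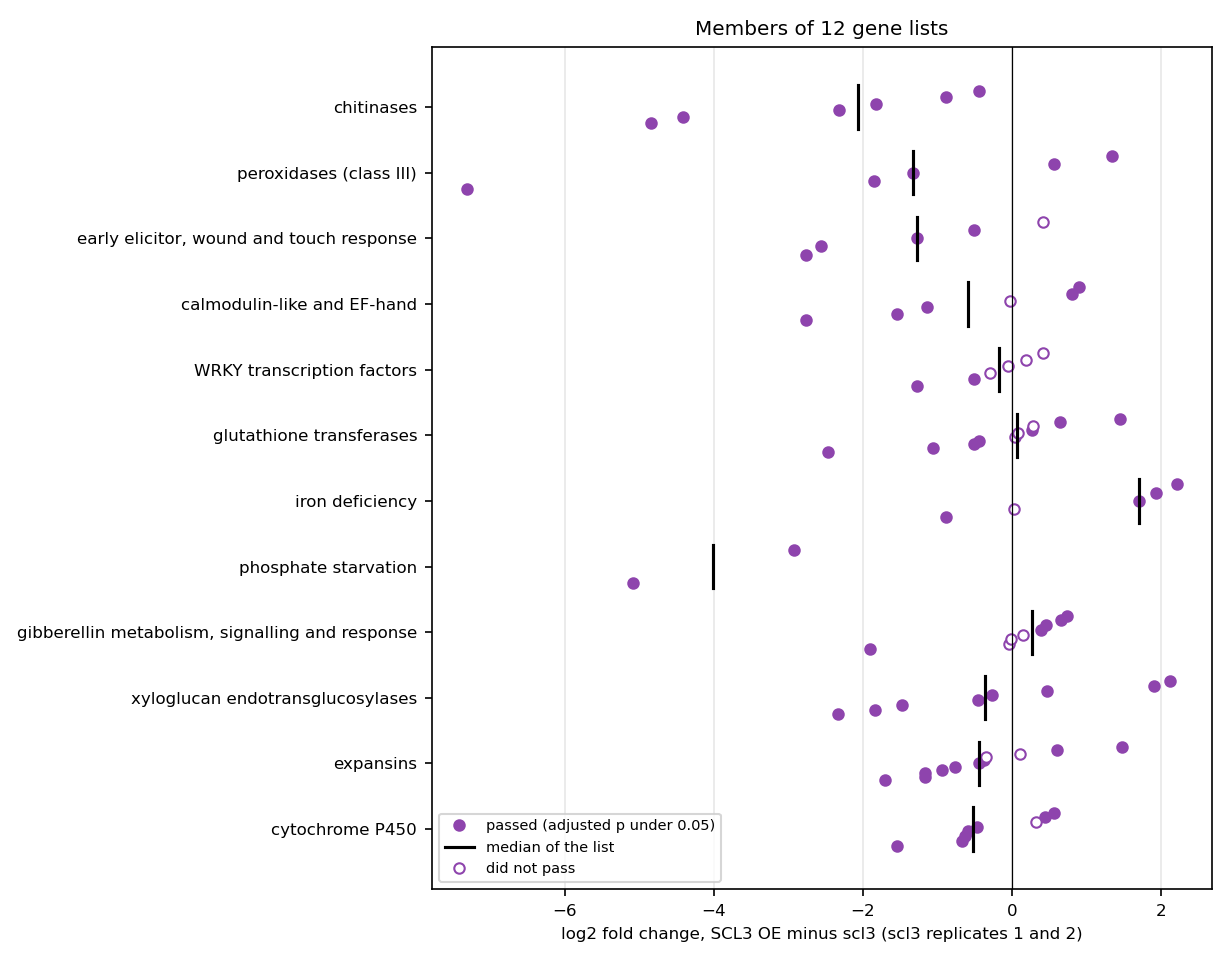
Log2 fold change, SCL3 OE minus scl3 replicates 1 and 2, of each tested member of 12 gene lists, with filled points for genes that passed (adjusted p under 0.05, limma), open points for those that did not and a bar at each list's median. All 6 chitinases and both phosphate genes lie below 0, and 3 of 5 iron genes lie well above it, while the other lists spread over both sides.

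Stress genes were also read along the order scl3, Col-0, SCL3 OE. A gene was called graded where no array of neighbouring groups overlapped, with replicates 1 and 2 of scl3 and Col-0. Over all tested probe sets, 681 were graded downward with SCL3 dose (4.99%) and 774 upward (5.67%), 1455 in all (10.7%). Together, the 13 stress lists hold 39 tested genes, of which 3 were graded downward and 1 upward, 10.3% of them and near the share of all tested probe sets. Most of the 39 are chitinases, class III peroxidases, glutathione transferases, WRKY factors and calmodulin-like genes. Some of the 13 lists had 1 tested gene or none. None of the 39 rose with all scl3 arrays in limma (3 higher at an unadjusted p under 0.05) and 5 fell (median -0.19). Of all tested probe sets, 0.945% rose and 0.96% fell there. With replicates 1 and 2, 8 of the 39 rose and 21 fell (median -0.44), where 20.9% and 19.6% of all tested probe sets did. Of the 2 tested genes of the salicylate and immunity list, 1 rose and 1 fell there, and 0 passed with all arrays in limma. By the order of group means alone, 16 of the 39 ran downward and 7 upward, where 23.6% and 24.1% of all tested probe sets did. The 2 steps share the Col-0 arrays. Between Col-0 and scl3, 1 of 13647 probe sets passed (0.00733%), the unnamed one described first, so no graded stress gene passed on that step.

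Among the 39, the downward genes were AT2G43590, AT2G41480 and GSTU22 (AT1G78340), and the upward one was GSTU16 (AT1G59700). The chitinase AT2G43590 had 5993 and 6187 in scl3, 5386 and 5819.7 in Col-0 and 1536, 1916 and 1740.4 in SCL3 OE. Its step from scl3 to Col-0 was -0.12 ± 0.11 and that from Col-0 to SCL3 OE -1.70 ± 0.097 (log2, SE). The peroxidase AT2G41480 had 1428 and 1643 in scl3, 919 and 1280.0 in Col-0 and 361, 401 and 536 in SCL3 OE, with steps of -0.50 ± 0.19 and -1.34 ± 0.17. In both, the step to SCL3 OE was the larger, and it passed in limma, where 38.0% of all tested probe sets did. GSTU22 had 7485 and 8945 in scl3, 6115 and 7041 in Col-0 and 3629, 3985 and 4159 in SCL3 OE. GSTU16 had 68.3 and 81.9 in scl3, 97.0 and 93.2 in Col-0 and 185, 222 and 217 in SCL3 OE. For GSTU22 the steps were -0.32 ± 0.11 and -0.74 ± 0.10, and for GSTU16 0.34 ± 0.20 and 1.11 ± 0.19.

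With replicate 3 included, none of these tested genes kept this order. AT2G43590 had 5347 in scl3 replicate 3 and 3165 in Col-0 replicate 3, both above all SCL3 OE arrays but with the scl3 value below both other Col-0 values. AT2G41480 had 210.4 in scl3 replicate 3 and 179.8 in Col-0 replicate 3, below all SCL3 OE arrays. GSTU22 had 101 in scl3 replicate 3 and 92.1 in Col-0 replicate 3, far below SCL3 OE, and GSTU16 had 848 in scl3 replicate 3 and 653 in Col-0 replicate 3, far above it. Below the filter, the calmodulin-like genes AT1G76640 and CML37 (AT5G42380) were also graded downward. AT1G76640 had 276 and 218 in scl3, 166 and 204 in Col-0 and 33.7, 46.6 and 8.99 in SCL3 OE, and with 246 in scl3 replicate 3 and 66.8 in Col-0 replicate 3 it kept the order in all 9 arrays. CML37 had 86.9 and 146 in scl3, 65.9 and 76.3 in Col-0 and 1.57, 15.7 and 1.62 in SCL3 OE, with 25.9 and 25.7 in the replicates 3 of scl3 and Col-0.

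Further genes named above were read in the same way, some of them, such as ChiC and STZ, members of the stress lists. Of the 12 deepest falls, AT3G47480, AT5G39580, AT4G01390 and AT5G39670 were graded downward, where 4.99% of all tested probe sets were, and the contrast that picked them forms the ends of the order. AT5G39580 had 2174 and 2137 in scl3, 1813 and 1799 in Col-0 and 97.8, 152 and 69.3 in SCL3 OE, with a step of -0.26 ± 0.26 to Col-0 and -4.14 ± 0.24 to SCL3 OE. AT3G47480 had 845 and 754 in scl3, 662 and 672 in Col-0 and 30.2, 3.20 and 14.5 in SCL3 OE. OSM34, chosen after its values were seen, had 11104 and 10580.3 in scl3, 9315 and 8747 in Col-0 and 1241, 1321 and 1803 in SCL3 OE. In these genes Col-0 lay close under scl3 and SCL3 OE far below both. ChiC was not graded, with 2610.3 and 2523 in scl3, 2718 and 1921 in Col-0 and 67.3, 98.0 and 105 in SCL3 OE, nor was STZ, with 1139.9 and 1223 in scl3, 1532 and 1529 in Col-0 and 249, 181 and 176 in SCL3 OE, where Col-0 was the highest group.

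**Figure D4:**
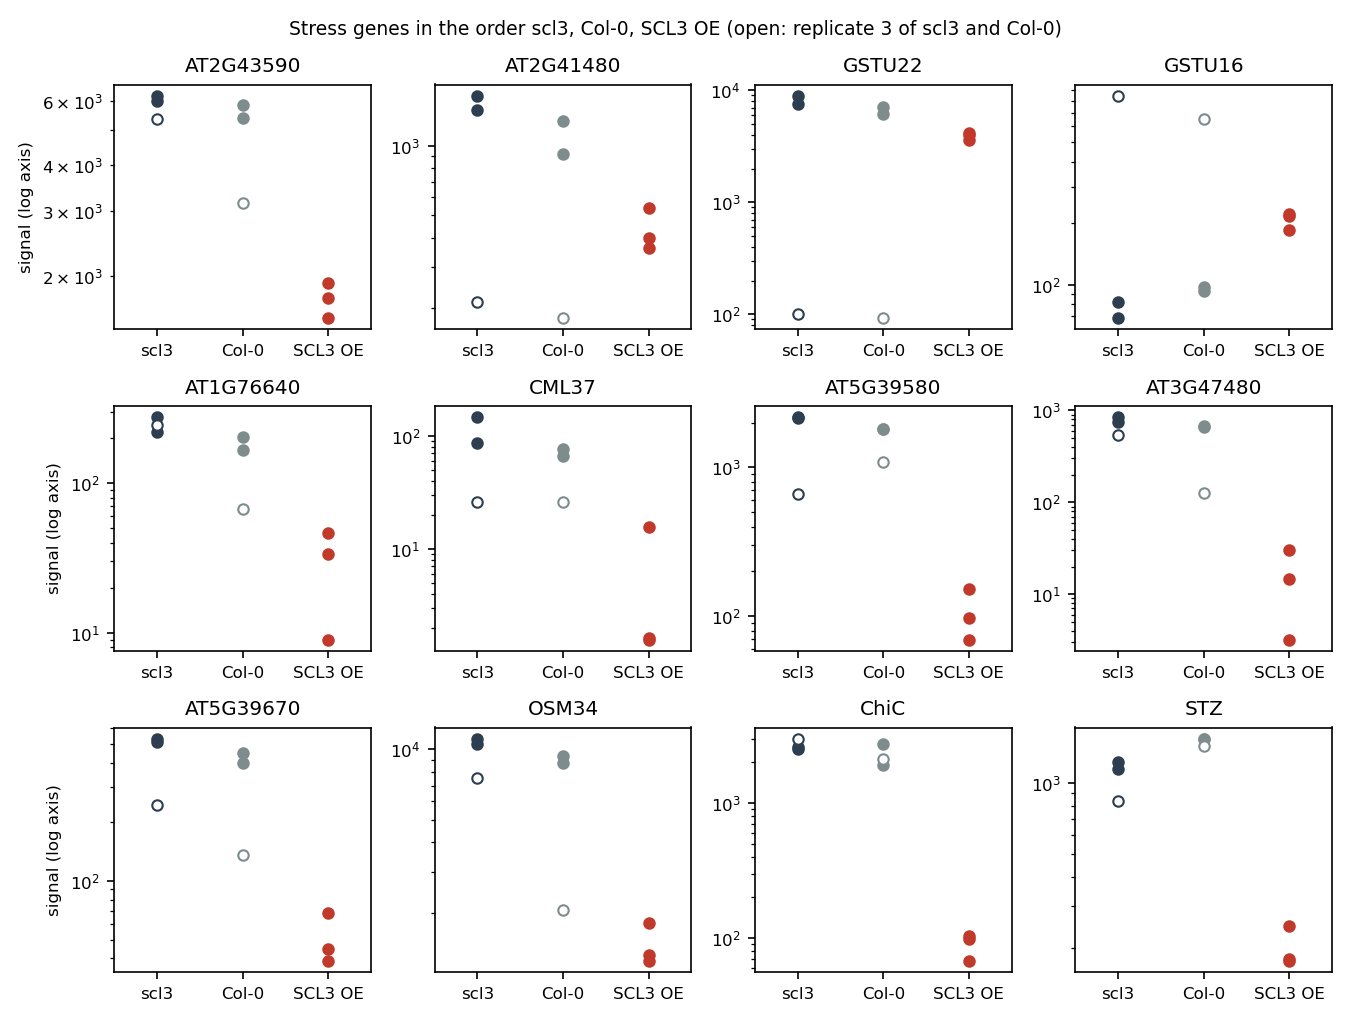
Signal on a log axis of 12 stress-related genes in the order scl3, Col-0, SCL3 OE, 1 point per array, with open points for replicate 3 of scl3 and Col-0. The first 6 panels are the graded members of the stress lists and the last 2, ChiC and STZ, are not graded; in most panels the gap between Col-0 and SCL3 OE exceeds that between scl3 and Col-0, and the open points often leave the order.

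Among the 12 largest rises, 7 were graded upward, where 5.67% of all tested probe sets were, and the contrast that picked them forms the ends of the order. They were SWEET3, AT3G45700, tny, AT1G72200, XTH21, AT1G31710 and AT4G25250. SWEET3 had 50.4 and 51.1 in scl3, 85.5 and 98.0 in Col-0 and 458, 450.4 and 401 in SCL3 OE, with steps of 0.84 ± 0.18 to Col-0 and 2.24 ± 0.16 to SCL3 OE. AT3G45700 had 297 and 287 in scl3, 436 and 437 in Col-0 and 1684, 1616 and 1405 in SCL3 OE, with steps of 0.58 ± 0.12 and 1.84 ± 0.11. For tny the steps were 0.45 ± 0.12 and 1.48 ± 0.11, and for AT4G25250 0.41 ± 0.12 and 1.34 ± 0.11. These genes were picked for the size of the whole contrast, so their order is a description. With all 9 arrays, 84 probe sets kept the order (0.616%), 63 upward (0.462%) and 21 downward (0.154%). They include AT1G31710, which had 39.3 in scl3 replicate 3 and 139 in Col-0 replicate 3, and AT4G33150, with 977, 1019 and 1156 in Col-0 between its scl3 and SCL3 OE values.

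A last group of genes changed sign or lost its separation with scl3 replicate 3. RCA (AT2G39730), the activase of Rubisco, had 1131, 987 and 875 in SCL3 OE, against 212 and 380.1 in scl3 replicates 1 and 2 and 25208 in replicate 3. It rose with replicates 1 and 2 (1.80 ± 0.21, SE) and had -0.36 ± 2.16 with all arrays. Of the 5 tested leaf photosynthesis genes, 3 rose with replicates 1 and 2 (median 0.60), where 20.9% of all tested probe sets did. The other 2 did not pass. With all arrays 0 passed in limma (0 also at an unadjusted p under 0.05), and all 5 log2 fold changes were below 0 (median -1.45). SWEET11 (AT3G48740), a sucrose transporter known from leaf veins, had 1635, 1842 and 2212 in SCL3 OE, against 148 and 158 in scl3 replicates 1 and 2 and 8136 in replicate 3. Its log2 fold change was 3.61 ± 0.13 with replicates 1 and 2 and 1.70 ± 1.86 with all arrays (SE).

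Among falls, BGLU25 (AT3G03640), a beta-glucosidase, had 1272, 1028 and 1042 in SCL3 OE, against 13120.2 and 18347 in scl3 replicates 1 and 2 and 1089 in replicate 3. LEA4-5 (AT5G06760), a late embryogenesis abundant protein of water deficit, had 44.3, 59.5 and 52.1 in SCL3 OE, against 881 and 1487 in scl3 replicates 1 and 2 and 51.5 in replicate 3. In both, scl3 replicate 3 lay within the SCL3 OE range, and the log2 fold changes were -3.81 ± 0.14 and -4.45 ± 0.20 without it, against -2.53 ± 1.36 and -2.96 ± 1.47 with it (SE), which did not pass. These genes and SWEET11 were chosen after their values were seen. PYK10 (AT3G09260), the abundant beta-glucosidase of root ER bodies, had 19104, 17762 and 16894 in SCL3 OE, against 32446 and 31972 in scl3 replicates 1 and 2 and 16618 in replicate 3. Its fall with replicates 1 and 2 (-0.85 ± 0.085) turned under quantile normalization (0.031), as did that of its lectin partner JAL34 (AT3G16460) (-0.33 ± 0.077, and 0.33).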

How the data were processed

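RNA of 9 whole-root samples was measured on ATH1 arrays, 1 array per sample. Per the submitters' processing notes, the authors made the deposited values, linear signal intensities, using MAS5 and Affymetrix Expression Console (version 1.1). Array medians ran from 158 to 191, and no further scaling was applied. Precision is limited by the number of arrays, and p-values of the main fits measure the spread between arrays of the same group. The SCL3 OE arrays form an array set of their own. In the fit with 7 arrays the spread therefore holds no difference between array sets, and its p-values do not cover such differences. In the fit with 9 arrays the spread holds them within scl3 and Col-0 but not within SCL3 OE. With array set as a random block, only the unnamed probe set described first passed.

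Of 22746 plant probe sets, 13513 were named with 1 gene, 503 with several and 8730 with none, so that 6306 of the 13647 tested were unnamed. For current symbols, 13436 matched RefSeq's TAIR10.1 table by gene number. The files name no build, and no coordinates or sequences are given.

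Signals were analysed as log2(signal + 1), which understates the change of dim probe sets. The 64 control probe sets were left out, and tests were run on the 13647 whose mean log2 signal exceeded 6.65, the 40th percentile. Models were fitted in limma 3.58.1 (R 4.3.3), with an intensity trend, group as the only term, 2-sided tests and Benjamini-Hochberg adjustment over all 13647, threshold 0.05, once with 9 arrays and once with 7, without replicate 3 of scl3 and Col-0. The code was tested on simulated data.

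Members, lists and tests were chosen with earlier results of these data known. Named genes were, among probe sets named with 1 gene that passed in both fits with the same sign, without overlap with any scl3 array and with a mean signal of at least 200.0 in the higher group, the 12 highest and 12 lowest by log2 fold change with an offset of 32. Up to 4 members per list by smallest adjusted p and the graded stress genes were added. Other list members and genes said to be chosen after their values were seen are further examples. There were 15 lists by locus and 10 by symbol or synonym, with 1 probe set per gene. The 10 miss genes of a family that carry no such name, so their counts do not cover whole families. Lists with no tested gene (jasmonate, ERF and DREB factors, cysteine-rich receptor kinases) are not described further. Nor are the oxidative and heat stress, abscisic acid and heat shock protein lists, with 1 tested gene each. Whether replicate numbers pair the SCL3 OE with the scl3 arrays could not be told from the values, and the main fits use no pairing. Alternatives were other offsets, filters, scalings, variance priors, sample sets, a replicate block, array set as a term and leaving out each array.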

Additional observations from a re-analysis of the deposited data

How the results depend on the processing

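The count with all scl3 arrays depended on single arrays. It ran from 8 to 658 when each array was left out (higher 1 to 366, lower 7 to 292), with 15, 10 and 8 without SCL3 OE replicate 1, 2 and 3, 8, 63 and 224 without scl3 replicate 1, 2 and 3, and 148 and 149 without Col-0 replicate 1 and 2 and 658 without Col-0 replicate 3. It was 397 (202 higher) with median centring and 5319 (2759 higher, 2560 lower) with array set as a fixed term that marks replicate 3 of scl3 and Col-0. With array set as a random block it was 1 (1 higher, 0 lower; 302 at an unadjusted p under 0.05, limma). Without a filter, 81 were higher. With scl3 replicates 1 and 2, counts ran from 3538 to 5442 (higher 1826 to 2820, lower 1712 to 2622), lowest without scl3 replicate 1, where the lone scl3 array is assumed to vary like the other groups.

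Same-numbered SCL3 OE and scl3 arrays deviated together at r = -0.12, 0.09 and -0.10. SCL3 OE replicate 1 had -0.12 and -0.17 with scl3 replicates 1 and 2 and 0.15 with replicate 3. The deviations of scl3 mostly set replicate 3 against the other arrays, so these values cannot show whether the numbers pair samples. For scl3 and Col-0 the same-numbered values were 0.90, 0.89 and 0.95, but 0.89 for scl3 replicate 1 with Col-0 replicate 2 too, and replicate 3 of both stood apart from the others. With the replicate block, 369 passed with all arrays (198 lower) and 4837 with replicates 1 and 2.

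Graded probe sets numbered 84 with all 3 arrays per group (63 upward, 21 downward) and 1574 to 3031 with 1 array left out (upward 828 to 1586, downward 746 to 1458), more by construction. Upward ones made up 53.2% of the 1455, and 67.8% under median centring. PYK10 and JAL34 turned from negative to 0.031 and 0.33 under quantile normalization with replicates 1 and 2. For single genes, 224 values with all arrays and 28 with replicates 1 and 2 lost their call and 79 and 3 gained one. An array has no read depth, and signals near 1 are at the floor.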

Other observations

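Genes of the plastid genome were not on a list at the outset and were gathered after their values were seen. Of 69 with a named probe set, 45 were tested. With scl3 replicates 1 and 2, 25 fell and 2 rose in SCL3 OE in limma (median -0.66), where 19.6% and 20.9% of all tested probe sets did. With all scl3 arrays 0 passed in limma (9 lower at an unadjusted p under 0.05, median -1.53). Of the 45, 28 were lower in every SCL3 OE array than in every scl3 array, as were 9.87% of all tested probe sets. psaI (ArthCp032), a subunit of photosystem I, had 122, 133 and 171 in SCL3 OE, against 615 and 494 in scl3 replicates 1 and 2 and 2632 in replicate 3. atpH (ArthCp009), of the plastid ATP synthase, had 24.9, 26.6 and 34.8 in SCL3 OE, against 128 and 76.6 in scl3 replicates 1 and 2 and 533 in replicate 3. rbcL (ArthCp030), the large subunit of Rubisco, had 118, 167 and 174 in SCL3 OE, against 358 and 388 in scl3 replicates 1 and 2 and 2619 in scl3 replicate 3. These 3, chosen after their values were seen, lay below scl3 in all arrays. Against scl3 replicates 1 and 2, 36 of the 45 had log2 fold changes below 0 and 9 above 0, among them psbF at 0.52. The 5 tested leaf photosynthesis genes of the nuclear genome had log2 fold changes above 0 there. The 3′ labelling of the kit, which starts from poly-A tails, and the poly-A controls, 2.16 higher in log2 signal in SCL3 OE than in scl3 replicates 1 and 2, stand beside these values, and their part was not tested.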
